A study of Mus musculus with 54 samples.

Results

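The comparison described here follows wild-type (WT) mouse CD4+ T cells from an early to a later point of activation in culture. Of the 54 RNA-seq libraries of the series, 6 were compared: 3 from WT cells stimulated for 20 h and 3 from WT cells stimulated for 4 h. They were chosen by their labelled genotype and time in the experiment on the receptors CD5 and CD6. Naive CD4+ T cells, T cells that have not yet met antigen, came from pooled lymph nodes and spleens of C57BL/6 mice and were enriched magnetically by negative selection, without flow sorting. Both groups received plate-bound anti-CD3 at 3 µg/ml together with anti-CD28 at 1 µg/ml, antibodies that engage the T cell receptor (TCR) complex and its main costimulatory receptor. In the labels they differ only by the time of stimulation. The 3 unstimulated WT samples (0 h), processed straight after purification, serve as reference levels. Lymph nodes and spleens were pooled. The samples of a condition are described as prepared independently, but not as coming from separate animals, so the p-values measure the spread between these samples.

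TCR and CD28 engagement sets off a rapid wave of immediate early transcription factors, cytokines and signaling feedback genes, and withdraws genes that keep a naive T cell quiescent and recirculating. Over the following hours the cell grows: it takes up nutrients, makes ribosomes and turns to glycolysis. It then passes from G1 into S phase, when the E2F factors released from the retinoblastoma protein switch on the genes for DNA synthesis, and later into mitosis.

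Total counts of the 6 libraries ran from 26377366 to 41520439 reads. Levels are given as CPM, the number of a gene's reads in every 1000000 reads of the TMM-scaled library total. Changes are given as log2 of the ratio of 20 h to 4 h with their standard error (SE). Markers of alpha beta CD4 T cells (Cd3e, Cd4, Trac and 7 others) were all present and summed to between 7850 and 9421 CPM at 4 h and between 5243 and 5724 CPM at 20 h. Libraries of the same time correlated with r between 0.983 and 0.991 over log2 CPM, and libraries of different times with r between 0.850 and 0.882. Among the other libraries of the experiment, which only help to set the spread of the joint fit, the unstimulated library labelled Cd5-/- replicate 2 held 719 CPM of Cd5 and the one labelled Cd6-/- replicate 2 held 172 CPM, each like the other genotype. Without those 2 libraries 2764 genes were higher and 4099 lower in the comparison described next. No spike-in was added, so a level is a share of the library, and fewer cells of a type cannot be told apart from less RNA per cell.

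Of 32290 genes with at least 1 read, 2822 were higher at 20 h (8.74% of the genes tested) and 3943 were lower (12.2%), by edgeR's quasi-likelihood test with an adjusted p under 0.05 and a change of more than 2-fold. In the 13225 genes that averaged 10 counts or more, 2445 were higher and 2729 lower. Their median log2 change was 0.02. In 2753 of the higher and 3707 of the lower genes the 3 libraries of one time did not overlap those of the other. Among all 32290 genes tested, called or not, 5662 lay higher at 20 h and 6355 lower without overlap, so non-overlap alone is common. Over all called genes the falls were the larger changes: 1718 lower genes but 677 higher genes moved more than 8-fold. The median log2 change of the called genes was 1.89 among the higher and -2.66 among the lower. These values include genes that averaged under 10 counts. In protein coding genes above that limit, the 2160 called higher had a median level of 5.48 CPM at 4 h and 23.6 CPM at 20 h. The 1949 called lower had 29.1 and 8.45 CPM, so the larger size of the falls is not shown for them. The genes were read through 34 lists for the pathways of T cell activation, growth and division, each described by its counts and by its median beside the median of 0 over all genes tested. In every list most members averaged 10 counts or more. The closer background is therefore the 2445 higher and 2729 lower of 13225 such genes, and a list whose counts lie near those shares is not set apart by them.

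**Figure D1:**
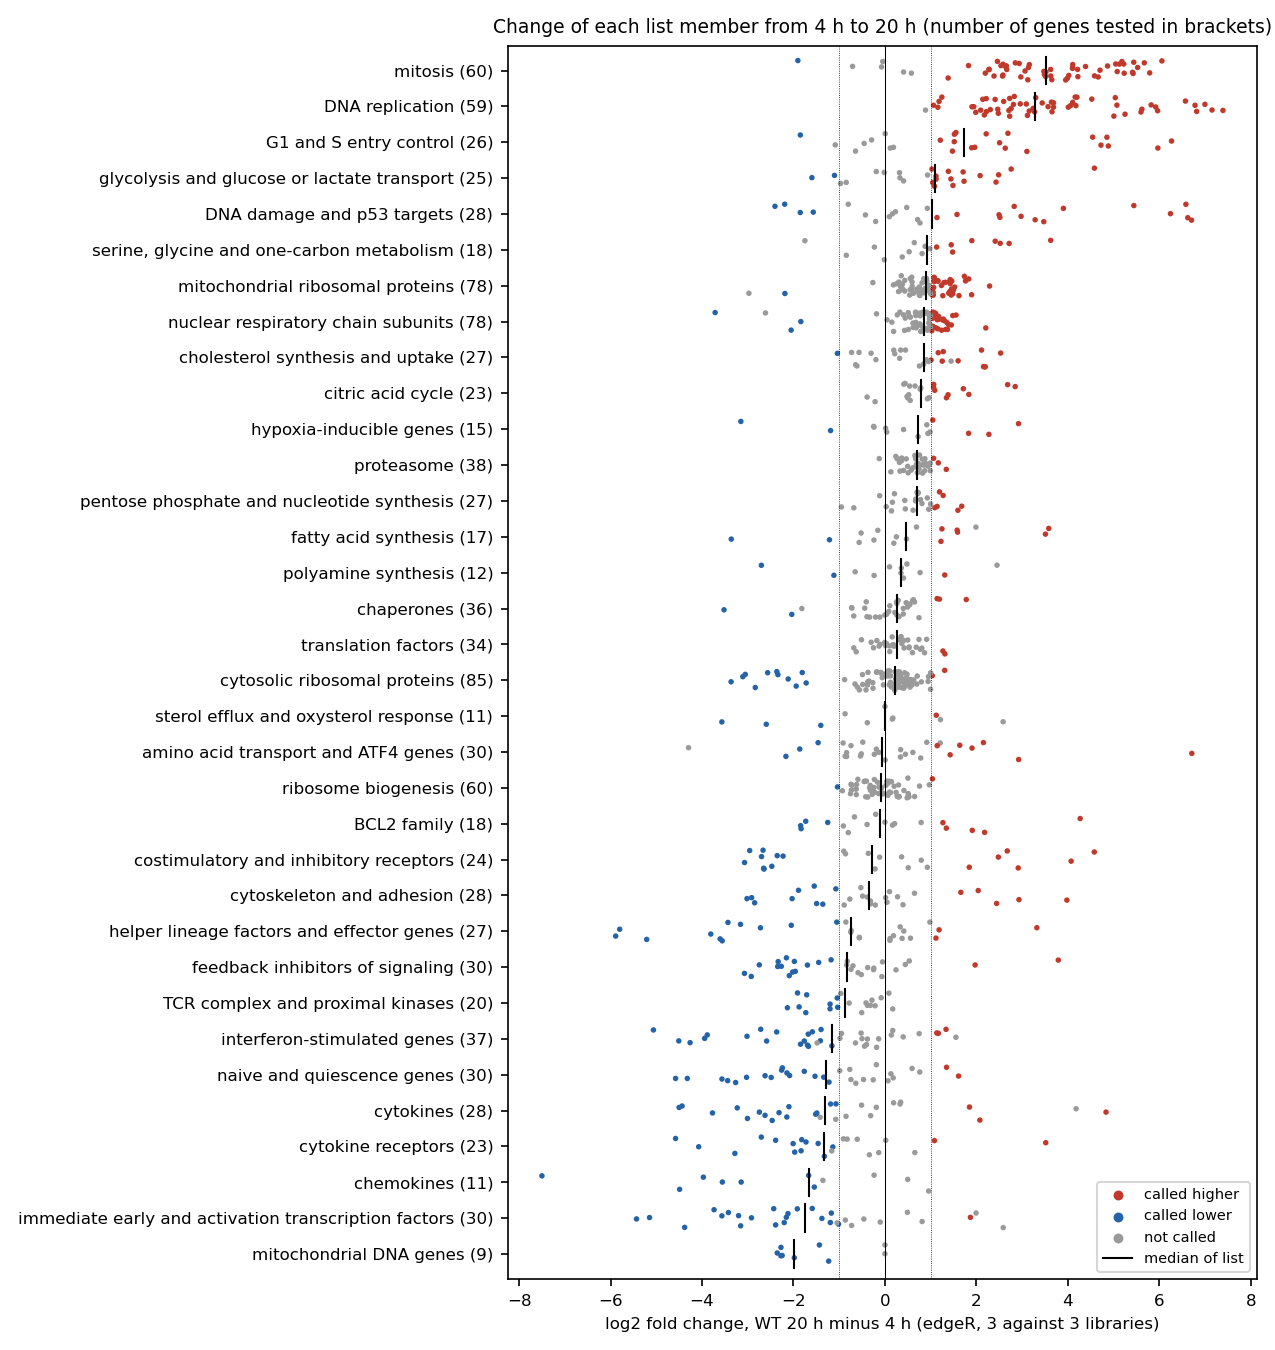
Each point is 1 gene of a list, placed by its log2 fold change from 4 h to 20 h in WT cells (horizontal axis), with red for genes called higher, blue for genes called lower, grey for genes not called, a black bar at the list's median and dotted lines at a 2-fold change. Mitosis and DNA replication lie furthest to the right, with medians of 3.52 and 3.27, and the mitochondrial DNA genes and the immediate early factors furthest to the left, with medians of -1.98 and -1.75.

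DNA replication showed the most uniform change. Of 59 genes tested, 58 rose and none fell, with a median log2 change of 3.27. The list's summed level went from 2247, 2060.1 and 2181 CPM at 4 h to 17240.0, 16541 and 15272 CPM at 20 h. At 4 h the sum was still that of unstimulated cells, which stood at 2186, 2058 and 2350.0 CPM. The remaining member, Orc2 of the origin recognition complex, passed the adjusted p without reaching a 2-fold change (105, 105 and 101 CPM at 4 h and 182, 201 and 190.5 CPM at 20 h; log2 change 0.89 ± 0.15 SE, edgeR adjusted p = 1.17e-06).

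Licensing factors of replication origins were among the steepest risers. Cdc6, which loads the replicative helicase, stood at 1.70, 0.570 and 0.497 CPM at 4 h and 159, 166 and 139 CPM at 20 h (log2 change 7.39 ± 0.31 SE, edgeR adjusted p = 2.51e-33). Orc1, the largest subunit of the origin recognition complex, stood at 0.346, 0.829 and 0.780 CPM at 4 h and 80.1, 91.9 and 80.7 CPM at 20 h (log2 change 7.00 ± 0.28 SE, edgeR adjusted p = 3.15e-34). In both genes the lowest 20 h library lay far above the highest 4 h library at 1.70 CPM or less. Mcm10, which helps to fire origins, stood at 1.54, 0.570 and 0.816 CPM at 4 h and 157, 154 and 103 CPM at 20 h (log2 change 7.15 ± 0.36 SE, edgeR adjusted p = 1.35e-28). Chaf1a, which places histones on new DNA, stood at 1.17, 0.932 and 1.03 CPM at 4 h and 142, 128 and 81.7 CPM at 20 h (log2 change 6.82 ± 0.28 SE, edgeR adjusted p = 1.14e-33). Mcm3, a helicase subunit already present in resting cells, rose 16.7-fold from 93.9, 79.6 and 90.6 CPM to 1535, 1532 and 1339 CPM. Pcna, the sliding clamp of the polymerases, rose only 2.27-fold (259.8, 225 and 282 CPM at 4 h and 588, 542 and 611 CPM at 20 h; log2 change 1.18 ± 0.15 SE, edgeR adjusted p = 5.45e-10), after an earlier rise from 105, 87.5 and 114 CPM at 0 h. Of its 50-base stretches, 19.1% also occur in transcripts of other genes, and reads from such stretches cannot be placed with certainty. The share was 49.7% for Chaf1a and 26.7% for Orc2.

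The promoters of these genes were searched for the letters that E2F factors bind. RefSeq windows from 250 bases before to 50 bases after the transcription start were searched on both strands for TTTCCCGC, TTTGGCGC, TTTCGCGC and TTTGCCGC. Here and below, a gene holds a motif if any of its windows does, and 4163 genes of the promoter table have more than 1 window. Such a motif lay in 18 of 48 DNA replication genes with a window (37.5%) and in 7 of 21 genes of G1 and S entry control (33.3%), beside 7.71% of all genes called higher, 3.01% of those called lower, 3.24% of those not called and 2.61% of all 27025 genes in the promoter table. A match of letters is a description and not evidence of binding. To show where such letters lie, the windows of the 2 called genes with the largest rise that hold them are printed, 5′ to 3′ on the gene's strand in build GRCm38.p6, with the E2F letters in capitals. In Cdc6 (chr11:98907901-98908200, plus strand) the match starts 138 bases before the transcription start, and in Orc1 (chr4:108579204-108579503, plus strand) 27 bases before it.
Cdc6: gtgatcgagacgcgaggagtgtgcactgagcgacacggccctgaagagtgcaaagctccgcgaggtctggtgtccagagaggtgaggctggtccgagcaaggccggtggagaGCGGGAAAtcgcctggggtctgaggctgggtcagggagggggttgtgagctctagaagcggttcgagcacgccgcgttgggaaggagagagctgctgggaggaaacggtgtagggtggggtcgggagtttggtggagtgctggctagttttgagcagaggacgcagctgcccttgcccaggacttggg
Orc1: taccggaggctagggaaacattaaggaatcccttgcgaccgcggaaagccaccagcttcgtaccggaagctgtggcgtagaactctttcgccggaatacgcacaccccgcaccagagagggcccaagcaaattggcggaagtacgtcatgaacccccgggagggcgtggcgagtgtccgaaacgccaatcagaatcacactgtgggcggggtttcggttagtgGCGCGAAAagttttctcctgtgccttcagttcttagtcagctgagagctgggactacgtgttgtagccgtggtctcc

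Genes of mitosis rose with those of S phase. Of 60 tested, 54 rose and 1 fell, with a median log2 change of 3.52. The sum went from 798, 806 and 699 CPM to 3782, 3425 and 2576 CPM. Cdk1, the kinase that drives entry into mitosis, stood at 5.38, 2.18 and 2.48 CPM at 4 h and 181, 186 and 187 CPM at 20 h (log2 change 5.79 ± 0.31 SE, edgeR adjusted p = 1.23e-27). Aurkb, the kinase of the chromosomal passenger complex, stood at 1.92, 1.01 and 1.17 CPM at 4 h and 105, 82.2 and 85.1 CPM at 20 h (log2 change 6.06 ± 0.31 SE, edgeR adjusted p = 2.89e-28). For both, all 20 h libraries lay above all 4 h libraries. Kif2c, a kinesin that dismantles microtubules at kinetochores, rose 46.1-fold (log2 change 5.53 ± 0.32 SE, edgeR adjusted p = 3.17e-25), and the kinetochore gene Cenpk rose 51.0-fold (log2 change 5.67 ± 0.34 SE, edgeR adjusted p = 1.30e-24). Bub1, a spindle checkpoint kinase, stood at 1.76, 0.647 and 0.993 CPM at 4 h and 56.3, 50.3 and 40.3 CPM at 20 h (log2 change 5.44 ± 0.33 SE, edgeR adjusted p = 1.16e-24).

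Within the mitosis list some members behaved otherwise. Mki67, the gene of the Ki-67 proliferation antigen, stood at 10.8, 4.58 and 0.745 CPM at 4 h and 44.0, 42.1 and 10.0 CPM at 20 h (log2 change 2.57 ± 0.51 SE, edgeR adjusted p = 2.29e-05). It was called higher although the lowest 20 h library, replicate 3, lay below the highest 4 h library, replicate 1. Kif15, a spindle kinesin, was the one member to fall, from 119.8, 163 and 127 CPM to 44.9, 44.0 and 20.4 CPM (log2 change -1.90 ± 0.23 SE, edgeR adjusted p = 7.05e-11), after standing at 2.16, 2.47 and 2.04 CPM at 0 h. The members not called were Smc4, Bub3, Pttg1, Cenpa and Cdc25b. Pttg1, the securin that guards sister chromatids until anaphase, stood at 26.2, 27.2 and 29.0 CPM at 4 h and 24.5, 25.1 and 30.1 CPM at 20 h. The centromeric histone gene Cenpa stood at 16.5, 19.9 and 24.6 CPM at 4 h and 16.0, 18.2 and 23.7 CPM at 20 h. In both genes the groups overlapped.

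Mitosis genes were searched for the letters of late cell cycle genes. The cell cycle homology region (CHR, TTTGAA or TTCGAA) was found in 39 of 50 genes with a window (78%), beside 17.5% of genes not called. The CCAAT box (CCAAT) was found in 37 of 50 (74%), beside 40.9%. Over all genes called higher the shares were 21.0% and 48.5%, and over every promoter they were 21.7% and 41.1%. The windows of Cdk1 (chr10:69352863-69353162, minus strand) and Bub1 (chr2:127831810-127832109, minus strand), the called members with the largest change that hold both, are printed with both motifs in capitals. In Cdk1 the CHR matches start 71 and 15 bases before the transcription start and CCAAT matches 80 and 48 bases before it as well as further upstream, and in Bub1 the CHR match starts 15 bases after the start and the CCAAT matches 68 and 42 bases before it.
Cdk1: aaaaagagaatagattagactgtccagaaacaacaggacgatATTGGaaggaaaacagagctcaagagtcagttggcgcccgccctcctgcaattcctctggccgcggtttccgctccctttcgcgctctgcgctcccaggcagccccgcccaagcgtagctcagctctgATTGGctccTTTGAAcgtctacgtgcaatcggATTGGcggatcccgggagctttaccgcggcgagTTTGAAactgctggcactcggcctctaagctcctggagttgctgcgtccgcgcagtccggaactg
Bub1: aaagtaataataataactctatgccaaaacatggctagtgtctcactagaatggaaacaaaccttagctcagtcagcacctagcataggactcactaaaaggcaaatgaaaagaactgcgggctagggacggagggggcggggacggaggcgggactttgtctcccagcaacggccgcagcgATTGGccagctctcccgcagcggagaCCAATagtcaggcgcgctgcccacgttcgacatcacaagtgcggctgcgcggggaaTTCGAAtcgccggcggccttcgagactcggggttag

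Regulators of G1 and of entry into S phase rose too. In this list 18 of 26 genes rose and 1 fell, with a median log2 change of 1.72. Ccne1, the cyclin that drives entry into S phase with CDK2, stood at 1.92, 1.50 and 1.10 CPM at 4 h and 103, 92.2 and 89.7 CPM at 20 h (log2 change 5.97 ± 0.23 SE, edgeR adjusted p = 1.24e-35). Its paralog Ccne2 rose 28.9-fold (log2 change 4.85 ± 0.24 SE, edgeR adjusted p = 7.14e-29). E2f1, an activator of S phase genes, stood at 2.99, 2.98 and 3.73 CPM at 4 h and 107, 90.2 and 89.2 CPM at 20 h (log2 change 4.89 ± 0.20 SE, edgeR adjusted p = 1.20e-33). Mybl2, a transcription factor of late S phase, rose 77.0-fold (log2 change 6.27 ± 0.29 SE, edgeR adjusted p = 1.24e-30). The gene that fell was Cdkn1b, which encodes the cyclin-dependent kinase inhibitor p27. It stood at 53.2, 87.1 and 86.6 CPM at 4 h and 22.4, 17.4 and 23.1 CPM at 20 h (log2 change -1.85 ± 0.18 SE, edgeR adjusted p = 1.43e-14) and had already come down from 268, 293 and 217 CPM at 0 h. In each of these genes the libraries of the 2 times did not overlap. Cdkn1a, the gene of the inhibitor p21, was not called (60.5, 73.0 and 62.0 CPM at 4 h and 34.1, 46.5 and 44.8 CPM at 20 h; log2 change -0.64 ± 0.20 SE, edgeR adjusted p = 0.00874).

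Among DNA damage genes and p53 targets 14 of 28 rose and 4 fell. Exo1, a nuclease that resects broken DNA ends, rose 98.5-fold, from 1.07, 1.11 and 0.780 CPM to 110.1, 102 and 83.5 CPM. Chek1, the kinase of the replication checkpoint, rose 75.8-fold, from 1.29, 1.66 and 2.02 CPM to 118, 128 and 129.5 CPM. The genes that fell included Trp53inp1 (log2 change -2.40 ± 0.18 SE, edgeR adjusted p = 3.68e-19) and Gadd45b (log2 change -2.19 ± 0.27 SE, edgeR adjusted p = 1.42e-10), both stress-inducible. In the BCL2 family of apoptosis regulators 5 of 18 rose and 4 fell, and its anti-apoptotic members went in opposite directions. Bcl2 stood at 278, 248 and 247 CPM at 4 h and 103, 59.8 and 53.8 CPM at 20 h (log2 change -1.83 ± 0.21 SE, edgeR adjusted p = 2.30e-11). Bcl2l1, the gene of BCL-XL, stood at 129, 131 and 125 CPM at 4 h and 473, 483 and 492 CPM at 20 h (log2 change 1.91 ± 0.16 SE, edgeR adjusted p = 1.46e-17). The libraries of the 2 times did not overlap for either gene. The pro-apoptotic gene Bad rose 4.53-fold and the anti-apoptotic Bcl2l2 2.54-fold. Bok rose on 1 count at 4 h (a ratio of 25.5 with a counting interval of 4.14 to 1051). Bcl2a1d, which shares 79.5% of its stretches with other transcripts, fell 3.59-fold.

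Over all protein coding genes called without overlap and with a mean of at least 50 counts, the 10 with the largest rise held Cdc6, Mcm10 and Orc1 of the replication list. The others were Aunip, Lrr1, Dtl, Drc1, Pclaf, Hist1h3a and Mnd1. Aunip, an Aurora A partner with a part in DNA repair, stood at 0.252, 0.104 and 0 CPM at 4 h and 29.6, 28.1 and 28.4 CPM at 20 h (log2 change 7.84 ± 0.43 SE, edgeR adjusted p = 9.82e-27). Dtl, the adaptor of the ubiquitin ligase that removes licensing factors in S phase, stood at 1.83, 1.29 and 2.16 CPM at 4 h and 248, 241 and 222 CPM at 20 h (log2 change 7.08 ± 0.26 SE, edgeR adjusted p = 2.38e-36). Pclaf, a PCNA-binding protein, rose 122.5-fold (log2 change 6.94 ± 0.32 SE, edgeR adjusted p = 6.02e-31). Lrr1, an adaptor in replisome disassembly, rose 158-fold (log2 change 7.31 ± 0.44 SE, edgeR adjusted p = 2.86e-24). For all of them the groups lay far apart, but several had few counts at 4 h. Mnd1, a recombination factor, had 3 counts in all at 4 h, a ratio of 126 with a counting interval of 42.6 to 612, and shares 40.8% of its 50-base stretches with other transcripts. Drc1, a gene of motile cilia, had 2 counts at 4 h, a ratio of 174 (47.8 to 1444). Unlike the others it stood at 7.95, 4.58 and 4.83 CPM already at 0 h. The histone gene Hist1h3a rose from 0.0315, 0.0777 and 0.0355 CPM to 6.68, 5.79 and 6.66 CPM, with 49.5% shared stretches.

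**Figure D2:**
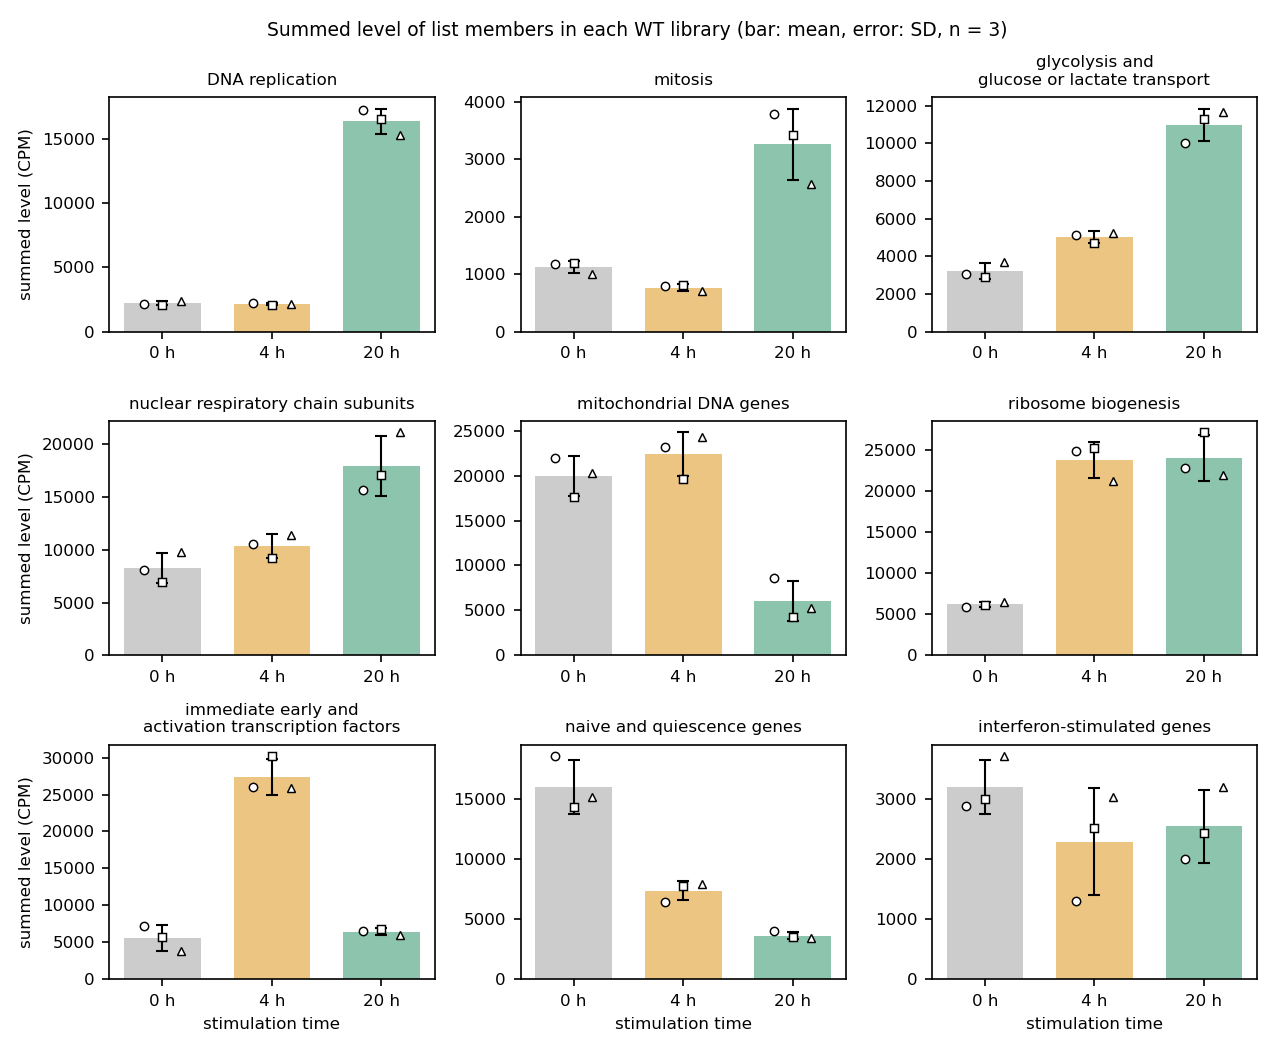
Summed level (vertical axis, in CPM) of the members of 9 lists in each WT library at 0, 4 and 20 h; bars are means, error bars SD over 3 libraries, and circle, square and triangle mark replicates 1, 2 and 3. DNA replication sat between 2060.1 and 2247 CPM at 4 h and between 15272 and 17240.0 CPM at 20 h, the immediate early factors went the other way, and ribosome biogenesis stood at like levels at both times, with the libraries overlapping.

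Most glycolysis genes rose, but not the glucose transporter at the head of the pathway. Of 25 genes 15 rose and 2 fell, with a median log2 change of 1.08. Tpi1, triose phosphate isomerase, rose most: it stood at 44.0, 42.0 and 47.1 CPM at 4 h and 867, 1146 and 1173 CPM at 20 h (log2 change 4.58 ± 0.21 SE, edgeR adjusted p = 8.63e-32), having been 49.0, 49.9 and 64.0 CPM at 0 h. The phosphofructokinase gene Pfkm rose 6.78-fold (log2 change 2.76 ± 0.20 SE, edgeR adjusted p = 1.02e-20). The enolase gene Eno1 rose 5.60-fold (log2 change 2.49 ± 0.17 SE, edgeR adjusted p = 8.69e-22). Aldoc, an aldolase at low level, rose 5.39-fold (log2 change 2.43 ± 0.34 SE, edgeR adjusted p = 8.80e-09). For these 3 genes the change from 0 h to 4 h had gone the other way, with log2 changes of -2.38, -1.30 and -2.79. Hk2, the inducible hexokinase, stood at 50.8, 65.7 and 47.5 CPM at 4 h and 178, 176 and 106 CPM at 20 h (log2 change 1.49 ± 0.24 SE, edgeR adjusted p = 3.95e-07).

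Other glycolytic members were nearer the threshold or went down. Ldha, lactate dehydrogenase A, stood at 1694, 1419.7 and 1760.4 CPM at 4 h and 2785, 3399 and 3755 CPM at 20 h (log2 change 1.03 ± 0.18 SE, edgeR adjusted p = 1.14e-06). That is a 2.04-fold change, and the call was lost in 5 alternative settings, to 0.95 without the 4 h replicate 2 and 0.93 without the 20 h replicate 3. Pdk1, the kinase that keeps pyruvate out of mitochondria, stood at 57.0, 79.4 and 83.5 CPM at 4 h and 148, 156 and 150.1 CPM at 20 h (log2 change 1.05 ± 0.15 SE, edgeR adjusted p = 2.93e-08), still below its level of 446, 445 and 383 CPM at 0 h. Slc2a1, the glucose transporter GLUT1, was not called (107, 105 and 127 CPM at 4 h and 127, 149 and 149 CPM at 20 h; log2 change 0.33 ± 0.16 SE, edgeR adjusted p = 0.116). Pfkfb3, which makes the activator of phosphofructokinase, fell (262, 266 and 239.9 CPM at 4 h and 96.8, 86.6 and 70.3 CPM at 20 h; log2 change -1.60 ± 0.16 SE, edgeR adjusted p = 7.53e-14). So did the neuronal enolase gene Eno2 (2.24, 2.33 and 1.95 CPM at 4 h and 1.04, 0.995 and 0.989 CPM at 20 h; log2 change -1.10 ± 0.39 SE, edgeR adjusted p = 0.0231), a call lost in 6 alternative settings, with adjusted p-values up to 0.0782 when 1 of the libraries other than the 4 h replicate 3 was left out. Gapdh, a gene that every cell uses, was counted at only 10.6, 13.4 and 9.58 CPM at 4 h and 7.39, 4.75 and 4.95 CPM at 20 h. It shares 25.1% of its 50-base stretches with other transcripts and the handling of reads that match several places is not given in the sources used here, so its level is uncertain.

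Mitochondrial genes split by the genome that encodes them. Subunits of the respiratory chain encoded in the nucleus rose in 27 of 78 genes and fell in 3, with a median log2 change of 0.85, and mitochondrial ribosomal proteins rose in 33 of 78 and fell in 1, with a median of 0.90. Both medians lie just under the 2-fold threshold, and the counts that rose ranged from 16 to 36 and from 26 to 40 when 1 WT library was left out. They were 23 and 31 with relative log expression factors and 36 and 40 with library totals. In each of these lists 63 genes passed the adjusted p upward at any fold. Genes encoded in mitochondrial DNA fell in 7 of 9, with a median of -1.98, and their sum went from 23195, 19611 and 24306 CPM to 8597, 4315 and 5234 CPM. The other 2, mt-Atp6 and mt-Nd3, were listed at 0 CPM in every library and share 99.5% and 98.0% of their stretches with other transcripts.

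The encoded subunits show the split gene by gene. Sdhd, a membrane anchor of succinate dehydrogenase, stood at 86.8, 79.8 and 98.8 CPM at 4 h and 346, 385 and 493 CPM at 20 h (log2 change 2.21 ± 0.19 SE, edgeR adjusted p = 4.28e-17). Uqcr11 of complex III rose 2.94-fold (log2 change 1.55 ± 0.21 SE, edgeR adjusted p = 3.66e-09). Ndufv3 of complex I rose 2.74-fold (log2 change 1.45 ± 0.16 SE, edgeR adjusted p = 6.44e-12). Uqcr10 of complex III followed at 2.80-fold. Among the ribosomal proteins Mrpl34 rose 4.89-fold (log2 change 2.29 ± 0.19 SE, edgeR adjusted p = 4.47e-17), Mrpl18 3.72-fold, Mrpl14 3.56-fold and Mrpl45 3.39-fold. On the mitochondrial side, mt-Cytb, the cytochrome b of complex III, stood at 5505, 4692 and 6018 CPM at 4 h and 1479.6, 781 and 908 CPM at 20 h (log2 change -2.36 ± 0.24 SE, edgeR adjusted p = 2.49e-13). Its libraries at 0 h, at 5477, 4289 and 5040.4 CPM, overlapped those of 4 h. mt-Co1 of cytochrome oxidase stood at 7152, 6065 and 7793 CPM at 4 h and 2383, 1201 and 1736 CPM at 20 h (log2 change -1.98 ± 0.23 SE, edgeR adjusted p = 1.06e-11). Further, mt-Nd4 fell 4.84-fold, mt-Nd5 4.84-fold and mt-Nd6 4.75-fold, and of the 7 mt-Nd1 fell least (log2 change -1.23 ± 0.24 SE, edgeR adjusted p = 2.35e-05). For each of them the libraries of the 2 times did not overlap, and in each the 20 h library of replicate 1 was the highest of its group. Of mt-Co1 and mt-Nd4, 51.1% and 62.2% of stretches also occur in other transcripts, but none of mt-Cytb, mt-Nd1 and mt-Nd6. Nuclear genes that fell were few and at low counts, and the 3 respiratory chain genes among them had a median of 22.1% of their stretches in other transcripts, beside 2.48% for the 27 that rose. Atp5g2, with 38.4%, fell 4.15-fold. Atp5l fell too (5.23, 7.35 and 2.91 CPM at 4 h and 0.451, 0.184 and 0.533 CPM at 20 h; log2 change -3.71 ± 0.43 SE, edgeR adjusted p = 2.58e-11), as did Mrpl23 (3.81, 5.28 and 3.33 CPM at 4 h and 0.817, 0.737 and 1.18 CPM at 20 h; log2 change -2.19 ± 0.42 SE, edgeR adjusted p = 1.09e-05). The citric acid cycle rose in 9 of 23 genes and fell in none, median 0.78, led by Pcx, pyruvate carboxylase (log2 change 2.85 ± 0.29 SE, edgeR adjusted p = 1.57e-13). Idh2, the mitochondrial isocitrate dehydrogenase, followed (11.2, 16.8 and 17.9 CPM at 4 h and 96.3, 96.8 and 101 CPM at 20 h; log2 change 2.68 ± 0.17 SE, edgeR adjusted p = 1.14e-23), beside 88.8, 92.8 and 107 CPM at 0 h. The aspartate aminotransferase genes Got1 and Got2 rose 3.57-fold and 3.28-fold.

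Pathways that feed biosynthesis changed in part. In serine, glycine and one-carbon metabolism 8 of 18 genes rose and none fell. Phgdh, the entry enzyme of serine synthesis, stood at 24.4, 20.0 and 27.1 CPM at 4 h and 147, 157 and 166 CPM at 20 h (log2 change 2.72 ± 0.20 SE, edgeR adjusted p = 2.44e-20). Psph, the last enzyme of that path, rose 5.74-fold (log2 change 2.52 ± 0.20 SE, edgeR adjusted p = 1.95e-18). Ahcy, which clears S-adenosylhomocysteine, rose 5.32-fold (log2 change 2.41 ± 0.18 SE, edgeR adjusted p = 6.29e-20). For Phgdh and Ahcy, 47.8% and 68.7% of stretches also occur in other transcripts, which leaves their values uncertain. Aldh1l2, a mitochondrial folate enzyme, rose too, but from 0, 0.0259 and 0.0355 CPM to 0.254, 0.479 and 0.152 CPM. Their 20 h libraries all lay above their 4 h libraries. In the pentose phosphate and nucleotide pathways 6 of 27 genes rose and none fell, with 20 upward at the adjusted p alone. The 6 lie near the background share of 2445 in 13225 genes. At the adjusted p alone 4461 of all 32290 genes tested were higher. Paics of purine synthesis was the largest (237, 205 and 233 CPM at 4 h and 661, 729 and 775 CPM at 20 h; log2 change 1.68 ± 0.17 SE, edgeR adjusted p = 4.98e-14). Prps2, which makes the ribose donor, rose 3.02-fold, and the purine enzymes Atic and Adss 2.42-fold and 2.29-fold. Among genes of amino acid transport and the ATF4 response 7 of 30 rose and 3 fell, the rises again near that background share. Their median log2 change was -0.06, from -0.11 with relative log expression factors to 0.04 with library totals, and their sum went down without overlap, from 6553, 6428 and 6071 CPM to 4516, 4719 and 4298 CPM. Asns, asparagine synthetase, stood at 7.24, 3.81 and 5.07 CPM at 4 h and 19.4, 29.1 and 23.1 CPM at 20 h (log2 change 2.15 ± 0.36 SE, edgeR adjusted p = 6.55e-07). The translation repressor gene Eif4ebp1 stood at 6.64, 5.59 and 8.05 CPM at 4 h and 40.1, 55.0 and 58.7 CPM at 20 h (log2 change 2.92 ± 0.24 SE, edgeR adjusted p = 7.25e-18). Cth, cystathionine gamma-lyase, had 3 counts at 4 h, a ratio of 114 with a counting interval of 38.7 to 557. Slc7a3, a related carrier at low level, rose 3.74-fold. Slc7a1, the carrier of arginine and lysine, fell (1300.3, 1342 and 1024 CPM at 4 h and 393, 350.2 and 264 CPM at 20 h; log2 change -1.86 ± 0.17 SE, edgeR adjusted p = 3.57e-15). So did Ddit3, the stress factor CHOP (log2 change -2.17 ± 0.19 SE, edgeR adjusted p = 1.39e-16). The ATF4 element (TGATGNAA) lay in 10 of 23 genes of this list with a promoter window (43.5%), beside 3.22% of genes not called and 4.51% of the whole promoter table. The list was chosen to hold genes of the ATF4 response, so this share is no evidence about the change from 4 h to 20 h.

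Lipid synthesis rose in part. In cholesterol synthesis and uptake 10 of 27 rose and 1 fell (0 with library totals), median 0.85, led by Mvk, mevalonate kinase, which stood at 6.36, 5.44 and 7.56 CPM at 4 h and 34.2, 33.5 and 43.9 CPM at 20 h (log2 change 2.53 ± 0.20 SE, edgeR adjusted p = 5.57e-18). Pmvk rose 4.58-fold, Dhcr7 4.54-fold and Mvd 4.45-fold. The log2 changes of Mvk, Dhcr7 and Mvd from 0 h to 4 h were -1.57, -1.79 and -1.73. The sterol element (TCACNCCAC) was found in 1 of 19 genes of this list with a promoter window (5.26%), beside 1.51% of genes not called. In sterol efflux and the oxysterol response 3 of 11 genes were lower and 1 higher, with a median log2 change of 0, while the sum went up without overlap, from 453, 497 and 577 CPM to 611, 615 and 789 CPM. The exporter Abca1 stood at 5.54, 10.5 and 5.36 CPM at 4 h and 0.761, 0.663 and 0.343 CPM at 20 h (log2 change -3.57 ± 0.37 SE, edgeR adjusted p = 1.84e-13). Abcg1 fell 2.64-fold and the ubiquitin ligase gene Mylip 6.04-fold. The gene that rose, Npc2, which moves cholesterol out of lysosomes, changed 2.18-fold and lost the call in 2 alternative settings. In fatty acid synthesis 6 of 17 rose and 2 fell: Fads2 rose 11.4-fold, Elovl6 3.01-fold and Fads1 2.99-fold, and Acsl4, which activates arachidonate, fell 2.32-fold. The desaturase genes went in opposite directions. Scd2 stood at 13.4, 12.8 and 12.2 CPM at 4 h and 195, 133 and 132 CPM at 20 h (log2 change 3.58 ± 0.20 SE, edgeR adjusted p = 3.82e-26). Scd1 stood at 8.72, 5.80 and 17.7 CPM at 4 h and 1.35, 0.737 and 0.989 CPM at 20 h (log2 change -3.36 ± 0.40 SE, edgeR adjusted p = 6.59e-11). Neither pair of groups overlapped.

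The machinery for making proteins stood high at 4 h and few of its genes were called after that. Ribosome biogenesis had 1 of 60 genes higher and 1 lower, with a median log2 change of -0.08. Its sum stood at 24967, 25240.2 and 21227 CPM at 4 h and at 22889, 27191 and 21929 CPM at 20 h, beside 5955, 6185 and 6475 CPM at 0 h. Those 2 genes, Polr1c (log2 change 1.04 ± 0.18 SE, edgeR adjusted p = 2.36e-06) and Ddx10 (log2 change -1.04 ± 0.17 SE, edgeR adjusted p = 2.48e-07), lay near the 2-fold threshold and each lost the call in 4 alternative settings. Under scaling by library totals the median of this list was 0.02. Translation factors had 2 of 34 higher and none lower, namely Eif2b1 and Eif2b4. Proteasome genes had 3 of 38 higher and none lower, median 0.71, though 30 passed the adjusted p upward. With library totals 7 proteasome genes were called higher, and from 3 to 11 when 1 WT library was left out. Psmb8 of the immunoproteasome was the largest (116, 115 and 171 CPM at 4 h and 283, 293 and 444 CPM at 20 h; log2 change 1.34 ± 0.22 SE, edgeR adjusted p = 2.81e-07). Psma1 and Psmd7 rose 2.25-fold and 2.09-fold. Among chaperones 3 of 36 rose and 2 fell. Hspd1, the mitochondrial chaperonin, stood at 575, 519 and 549 CPM at 4 h and 1087, 1368 and 1168 CPM at 20 h (log2 change 1.14 ± 0.16 SE, edgeR adjusted p = 1.09e-08). Sdf2l1 of the endoplasmic reticulum rose 3.43-fold. Hspe1, the partner of Hspd1, rose 2.29-fold, and 22.8% and 42.1% of the stretches of these partners are shared. The stress-inducible Hspa1a and Hspa1b fell from 0.787, 0.958 and 0.674 CPM to 0.0846, 0.0369 and 0.0761 CPM and from 1.42, 1.40 and 1.28 CPM to 0.451, 0.405 and 0.114 CPM, with 66.3% and 62.3% of their stretches shared. In polyamine synthesis 1 of 12 rose and 2 fell. Smox, spermine oxidase, stood at 126, 94.2 and 92.2 CPM at 4 h and 16.6, 14.4 and 17.0 CPM at 20 h (log2 change -2.70 ± 0.18 SE, edgeR adjusted p = 5.24e-22), Sat1 fell 2.17-fold and Paox rose 2.48-fold.

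Cytosolic ribosomal proteins gave 2 of 85 genes higher and 11 lower, with a median log2 change of 0.21. Among those that fell, Rpl24 stood at 1.07, 1.29 and 1.42 CPM at 4 h and 0.254, 0.0369 and 0.0381 CPM at 20 h. Rps13 stood at 13.1, 22.4 and 14.1 CPM at 4 h and 2.79, 1.58 and 1.29 CPM at 20 h, and Rpl5 fell 7.14-fold. Rpl10a stood at 93.0, 137 and 83.0 CPM at 4 h and 15.2, 11.1 and 11.4 CPM at 20 h (log2 change -3.05 ± 0.27 SE, edgeR adjusted p = 6.73e-16). Rps27l and Rpl13a rose 2.47-fold and 2.05-fold, the latter with the call lost in 4 alternative settings. Ribosomal protein genes have many processed copies in the genome: the median share of 50-base stretches also found in other transcripts was 22.6% for the 11 that fell and 24.1% for the 72 not called, so these values are uncertain. The count of 2 higher became 1 with relative log expression factors and 5 with library totals.

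Immediate early and activation transcription factors fell back. Of 30 genes 20 fell and 1 rose, with a median log2 change of -1.75. The sum went from 25985, 30231 and 25905 CPM to 6583, 6767 and 5957 CPM. Of the 20 that fell, 16 had been higher at 4 h than at 0 h by the same rule, and 11 were still above 0 h at 20 h. Nr4a1, an orphan nuclear receptor that reports TCR signaling, stood at 6686, 8008 and 7507 CPM at 4 h and 370.3, 369 and 327 CPM at 20 h (log2 change -4.38 ± 0.28 SE, edgeR adjusted p = 2.77e-23). Its relative Nr4a2 stood at 876, 1160.3 and 826 CPM at 4 h and 17.2, 29.4 and 19.7 CPM at 20 h (log2 change -5.43 ± 0.31 SE, edgeR adjusted p = 4.18e-26). Nr4a3 stood at 3225, 4475 and 3349 CPM at 4 h and 323, 282 and 224 CPM at 20 h (log2 change -3.74 ± 0.20 SE, edgeR adjusted p = 2.99e-27). All 3 fell by 13.3-fold or more with groups far apart, and Nr4a1 had stood at 232, 202 and 131 CPM at 0 h.

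Other members of the wave fell to different floors. Egr2, a zinc finger factor tied to anergy, stood at 19.3, 18.1 and 19.8 CPM at 4 h and 1.83, 1.66 and 1.83 CPM at 20 h (log2 change -3.42 ± 0.29 SE, edgeR adjusted p = 3.05e-17), above its 0 h level of 0.166, 0.241 and 0.655 CPM. Fosl2, an AP-1 subunit, stood at 839, 1179.7 and 912 CPM at 4 h and 25.7, 30.6 and 26.4 CPM at 20 h (log2 change -5.15 ± 0.25 SE, edgeR adjusted p = 3.81e-30), and its log2 change from 0 h to 20 h was 0.28. Myc, the driver of growth programs, stood at 1121, 1425 and 1084 CPM at 4 h and 596, 650.0 and 550.1 CPM at 20 h (log2 change -1.02 ± 0.16 SE, edgeR adjusted p = 2.63e-07) and kept a level well over its 123.1, 143 and 125 CPM at 0 h. Its fold of 2.02 is at the threshold, and in 5 alternative settings it was not called, with a log2 change of -0.87 without the 4 h replicate 2, -0.99 without the 20 h replicate 1 and -0.96 without the 20 h replicate 3. Batf, an AP-1 factor of effector differentiation, was the one to rise (16.3, 18.7 and 20.9 CPM at 4 h and 59.0, 64.1 and 81.3 CPM at 20 h; log2 change 1.87 ± 0.21 SE, edgeR adjusted p = 5.01e-12). Batf3, below 1 CPM, had a log2 change of 2.59 without passing the test (edgeR adjusted p = 0.0829).

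**Figure D3:**
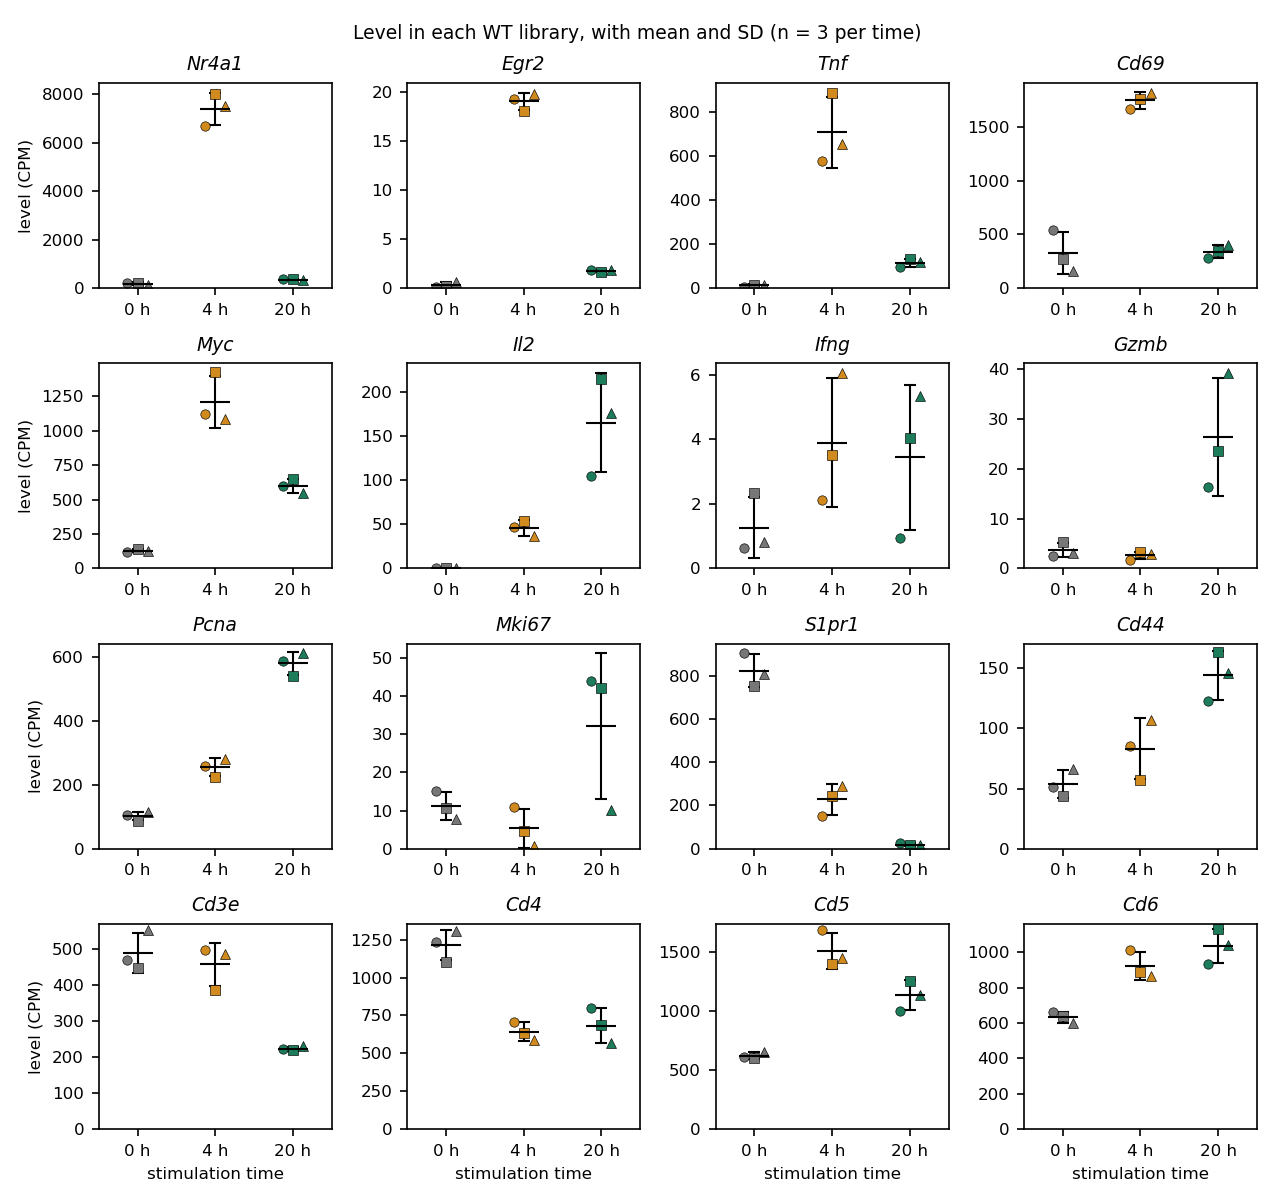
Level in CPM (vertical axis, linear and from 0) of 16 genes in each WT library at 0, 4 and 20 h, with mean and SD over 3 libraries; circle, square and triangle mark replicates 1, 2 and 3. Nr4a1, Egr2, Tnf and Cd69 peak at 4 h, Il2, Gzmb and Pcna are highest at 20 h without overlap, and Ifng, Cd4 and Cd6 overlap between 4 h and 20 h.

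Feedback inhibitors of signaling fell in 14 of 30 genes and rose in 2. Zfp36l1 and Zfp36 destabilize cytokine mRNAs. Zfp36l1 stood at 1857, 1746 and 1665 CPM at 4 h and 197, 246 and 183 CPM at 20 h (log2 change -3.07 ± 0.17 SE, edgeR adjusted p = 3.72e-26). Zfp36 stood at 594, 596 and 672 CPM at 4 h and 74.0, 89.7 and 81.8 CPM at 20 h (log2 change -2.92 ± 0.17 SE, edgeR adjusted p = 1.45e-25). Ubash3b, a phosphatase that dampens TCR signals, fell 6.72-fold (log2 change -2.75 ± 0.19 SE, edgeR adjusted p = 6.73e-22), and Spry2, an inhibitor of Ras signaling, 5.08-fold. These groups did not overlap, but 54.4% of the stretches of Zfp36l1 are shared. Socs2, a suppressor of cytokine signaling, and Rgs1, a brake on chemokine receptors, rose 13.8-fold (log2 change 3.79 ± 0.40 SE, edgeR adjusted p = 6.29e-13) and 3.92-fold (log2 change 1.97 ± 0.36 SE, edgeR adjusted p = 4.57e-06).

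Cytokine genes mostly fell, with Il2, the growth factor of T cells, among the exceptions. Of 28 genes 15 fell and 3 rose, with a median log2 change of -1.30, and 13 of the 15 had been higher at 4 h than at 0 h. Il2 stood at 47.5, 53.7 and 36.3 CPM at 4 h and 104, 215 and 176 CPM at 20 h (log2 change 1.85 ± 0.27 SE, edgeR adjusted p = 3.55e-08), beside 0.166, 0.151 and 0.170 CPM at 0 h. Il3, another growth factor, stood at 1.54, 1.22 and 0.816 CPM at 4 h and 2.65, 7.96 and 4.60 CPM at 20 h (log2 change 2.08 ± 0.44 SE, edgeR adjusted p = 7.33e-05). For both, all 20 h libraries exceeded all 4 h libraries. Il9 was called higher on 9 counts at 20 h against 0 at 4 h, at least 3.33-fold (edgeR adjusted p = 0.0428). It lost the call in 8 alternative settings, with adjusted p-values from 0.0637 to 0.131 when 1 library was left out. Tnf stood at 576, 887 and 656 CPM at 4 h and 94.8, 131 and 119 CPM at 20 h (log2 change -2.62 ± 0.26 SE, edgeR adjusted p = 3.08e-14) without overlap.

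Cytokines of helper lineages stood at 6.07 CPM or less at both times. Ifng, the cytokine of type 1 helper cells, stood at 2.11, 3.52 and 6.07 CPM at 4 h and 0.958, 4.05 and 5.33 CPM at 20 h (log2 change -0.19 ± 0.61 SE, edgeR adjusted p = 1.00) with overlapping groups. Il4, of type 2 cells, stood at 1.48, 2.51 and 3.90 CPM at 4 h and 0.423, 0.553 and 0.609 CPM at 20 h (log2 change -2.32 ± 0.53 SE, edgeR adjusted p = 2.05e-04). Il17a stood at 1.26, 1.24 and 1.67 CPM at 4 h and 0, 0 and 0.190 CPM at 20 h (log2 change -4.50 ± 0.84 SE, edgeR adjusted p = 6.77e-06). Il21 stood at 2.61, 3.31 and 3.09 CPM at 4 h and 0.141, 0.332 and 0.190 CPM at 20 h (log2 change -3.77 ± 0.54 SE, edgeR adjusted p = 1.48e-08). The last 3 fell without overlap. Il10 and Il6 also fell, by log2 changes of -3.23 and -4.44. Chemokines fell in 7 of 11 genes and rose in none. Among them were Ccl5 (10.1, 15.1 and 12.8 CPM at 4 h and 0.648, 1.14 and 0.647 CPM at 20 h; log2 change -3.97 ± 0.35 SE, edgeR adjusted p = 2.29e-16) and Cxcl10 (2.42, 7.85 and 9.19 CPM at 4 h and 0.197, 0.295 and 0.381 CPM at 20 h; log2 change -4.49 ± 0.55 SE, edgeR adjusted p = 9.12e-11). Cxcl9 fell from 0.315, 0.570 and 1.24 CPM to 0 counts, at least 20.1-fold lower, and Ccl20 fell 11.8-fold below 1 CPM.

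Cytokine receptors fell in 13 of 23 genes and rose in 2. Il7r, the receptor for the survival cytokine of naive cells, stood at 133, 287 and 328 CPM at 4 h and 11.5, 10.4 and 9.32 CPM at 20 h (log2 change -4.58 ± 0.24 SE, edgeR adjusted p = 1.31e-27), from 680.2, 557 and 573 CPM at 0 h. Il18r1, a receptor of inflammatory signals, stood at 6.80, 14.6 and 11.4 CPM at 4 h and 1.21, 0.774 and 1.37 CPM at 20 h (log2 change -3.28 ± 0.29 SE, edgeR adjusted p = 5.37e-16). Il12rb1, which with its partner receives the type 1 helper signal, rose from 3.27, 5.02 and 5.21 CPM to 55.6, 50.4 and 48.8 CPM (log2 change 3.52 ± 0.32 SE, edgeR adjusted p = 2.13e-15). Il2rb, a signaling chain of the Il2 receptor, rose from 250.0, 240.4 and 197 CPM to 549, 437 and 471 CPM (log2 change 1.08 ± 0.18 SE, edgeR adjusted p = 6.26e-07). The 2 times did not overlap in any of these. Csf2rb fell 16.8-fold and Il1r1 6.51-fold, the latter on 31 counts at 4 h and 4 at 20 h. Il1r1 lost the call in 3 alternative settings by its adjusted p. Without the 4 h replicate 1 its log2 change was -1.98 (edgeR adjusted p = 0.143). The values were -2.40 without the 20 h replicate 1 (edgeR adjusted p = 0.0720) and -2.21 without the 20 h replicate 3 (edgeR adjusted p = 0.0767).

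Of 24 costimulatory and inhibitory receptors 6 rose and 9 fell. Lag3, an inhibitory receptor that binds MHC class II, stood at 4.22, 3.57 and 4.72 CPM at 4 h and 104, 87.1 and 107 CPM at 20 h (log2 change 4.58 ± 0.27 SE, edgeR adjusted p = 2.51e-25). Cd226, an activating receptor, stood at 7.65, 10.8 and 10.3 CPM at 4 h and 158, 174 and 153 CPM at 20 h (log2 change 4.07 ± 0.21 SE, edgeR adjusted p = 1.65e-28). At 0 h Cd226 had stood at 83.9, 68.5 and 70.0 CPM. Cd69, an early activation marker that retains cells in lymphoid tissue, stood at 1662, 1756 and 1816 CPM at 4 h and 278, 348 and 397 CPM at 20 h (log2 change -2.36 ± 0.32 SE, edgeR adjusted p = 3.43e-09) beside 539, 274 and 158 CPM at 0 h. Cd274, the gene of PD-L1, stood at 722, 747 and 699 CPM at 4 h and 85.7, 101 and 92.3 CPM at 20 h (log2 change -2.96 ± 0.16 SE, edgeR adjusted p = 1.36e-27). Cd27 fell 6.34-fold and Slamf7 6.49-fold. Havcr2, the gene of TIM-3, fell from 0.441, 0.466 and 0.639 CPM to 0, 0.111 and 0.0761 CPM. Cd44, an adhesion receptor of activated cells, stood at 85.5, 56.8 and 107 CPM at 4 h and 122.8, 163 and 146 CPM at 20 h (log2 change 0.79 ± 0.23 SE, edgeR adjusted p = 0.00461) and did not reach a 2-fold change.

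Genes of the naive state went on falling. Of 30 genes 16 fell and 2 rose, with a median log2 change of -1.28. All 16 ended below 0 h, and 12 had already been lower at 4 h. S1pr1, which guides exit from lymph nodes, stood at 150.1, 243 and 292 CPM at 4 h and 25.5, 16.7 and 15.6 CPM at 20 h (log2 change -3.56 ± 0.22 SE, edgeR adjusted p = 3.04e-24). Klf2, a factor of naive cell recirculation, stood at 84.7, 150.3 and 176 CPM at 4 h and 19.8, 16.6 and 14.0 CPM at 20 h (log2 change -3.03 ± 0.23 SE, edgeR adjusted p = 2.27e-19). For both genes the libraries of 0 h, 4 h and 20 h formed separate ranges, the highest at 0 h. Cxcr4 fell 20.0-fold and the glucocorticoid-induced gene Tsc22d3 10.9-fold. Ccr7, a chemokine receptor that guides naive cells to lymph nodes, rose: it stood at 302, 374 and 332 CPM at 4 h and 979, 933 and 1163 CPM at 20 h (log2 change 1.61 ± 0.16 SE, edgeR adjusted p = 1.09e-13), and its log2 change from 0 h to 20 h was 0.26 after one of -1.35 from 0 h to 4 h. Dapl1 rose 2.54-fold and stood at 33.3, 32.3 and 26.3 CPM at 20 h, beside 152, 143 and 154 CPM at 0 h.

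The TCR complex and its proximal kinases fell in 9 of 20 genes and rose in none, with a median log2 change of -0.87. Trac, the constant region of the TCR alpha chain, stood at 2356, 1962 and 2293 CPM at 4 h and 601, 591 and 608 CPM at 20 h (log2 change -1.88 ± 0.15 SE, edgeR adjusted p = 1.91e-18). Cd2, an adhesion receptor, stood at 683, 545 and 688 CPM at 4 h and 142, 132 and 162 CPM at 20 h (log2 change -2.13 ± 0.16 SE, edgeR adjusted p = 2.26e-19). Ptprc, the phosphatase CD45, stood at 6152, 5989.5 and 4955 CPM at 4 h and 1659, 1645 and 1241 CPM at 20 h (log2 change -1.91 ± 0.17 SE, edgeR adjusted p = 4.45e-16). Fyn, a proximal kinase, fell 3.32-fold (log2 change -1.73 ± 0.15 SE, edgeR adjusted p = 1.17e-16). Cd3e fell 2.05-fold, at the threshold, and lost the call in 3 alternative settings, with a log2 change of -0.95 without the 4 h replicate 1 and -0.97 without the 4 h replicate 3. Cd4 itself was not called (708, 637 and 586 CPM at 4 h and 799, 685 and 567 CPM at 20 h; log2 change 0.09 ± 0.17 SE, edgeR adjusted p = 0.860). Nor were the receptors for which the experiment was designed, Cd5 (1684, 1399.6 and 1447 CPM at 4 h and 1004, 1257 and 1139.6 CPM at 20 h; log2 change -0.41 ± 0.32 SE, edgeR adjusted p = 0.390) and Cd6 (1012, 888 and 867 CPM at 4 h and 937, 1131 and 1044 CPM at 20 h; log2 change 0.17 ± 0.26 SE, edgeR adjusted p = 0.750). All 20 h libraries of Cd5 nevertheless lay below all 4 h libraries, while those of Cd6 overlapped. For both genes the spread of the joint fit also takes in the unstimulated Cd5-/- and Cd6-/- libraries that went against their labels, so these p-values do not measure the WT spread alone. The beta chain gene Trbc2 had a log2 change of -0.21.

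Lineage factors and effector genes fell in 11 of 27 and rose in 3. Bcl6, the factor of follicular helper cells, stood at 274, 252 and 217 CPM at 4 h and 5.81, 8.96 and 5.33 CPM at 20 h (log2 change -5.21 ± 0.21 SE, edgeR adjusted p = 9.44e-35), and at 23.7, 25.8 and 33.0 CPM at 0 h. Prdm1, the gene of BLIMP-1 and the counterpart of Bcl6, stood at 3.65, 4.53 and 3.62 CPM at 4 h and 0.113, 0.0737 and 0 CPM at 20 h (log2 change -5.80 ± 0.50 SE, edgeR adjusted p = 1.87e-16). Rora, a factor of type 17 cells, fell 14.0-fold (log2 change -3.81 ± 0.29 SE, edgeR adjusted p = 4.64e-19). Gzmk went from 22 counts to 0, at least 6.61-fold lower. Gzmb, the granzyme of cytotoxic granules, stood at 1.76, 3.21 and 2.87 CPM at 4 h and 16.3, 23.4 and 39.2 CPM at 20 h (log2 change 3.32 ± 0.44 SE, edgeR adjusted p = 1.40e-09) without overlap. Tbx21, the gene of T-bet, stood at 19.2, 44.6 and 60.4 CPM at 4 h and 43.7, 88.1 and 151 CPM at 20 h (log2 change 1.18 ± 0.46 SE, edgeR adjusted p = 0.0383). Its groups overlapped, with replicate 1 the lowest and replicate 3 the highest at both times and also at 0 h (2.19, 6.08 and 7.64 CPM). The call was lost in 6 alternative settings, with a log2 change of 0.86 without the 4 h replicate 1 and 0.67 without the 20 h replicate 3.

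Interferon-stimulated genes fell in 18 of 37 and rose in 3, with a median log2 change of -1.16, and 17 of the 18 ended below 0 h. Rsad2, an antiviral enzyme, stood at 15.6, 6.53 and 5.71 CPM at 4 h and 0.564, 0.111 and 0.0761 CPM at 20 h (log2 change -5.06 ± 0.44 SE, edgeR adjusted p = 1.86e-16). Oas2, a sensor of double-stranded RNA, stood at 0.315, 2.46 and 2.02 CPM at 4 h and 0.113, 0.0369 and 0.0381 CPM at 20 h (log2 change -4.51 ± 0.72 SE, edgeR adjusted p = 2.22e-07). Rtp4 fell 19.2-fold and Oasl2 15.4-fold. None of these groups overlapped. Gbp5, a guanylate binding protein induced by interferon gamma, rose 2.52-fold (21.8, 70.6 and 83.3 CPM at 4 h and 127, 147 and 170.1 CPM at 20 h; log2 change 1.34 ± 0.36 SE, edgeR adjusted p = 0.00183), and Bst2 2.25-fold (log2 change 1.17 ± 0.21 SE, edgeR adjusted p = 3.65e-06). The list's sum did not separate the times, at 1301, 2518 and 3032 CPM against 1996, 2423 and 3203 CPM. In the hypoxia-inducible list 4 of 15 rose (7 with library totals) and 2 fell: Egln3, a HIF hydroxylase, rose 7.57-fold (log2 change 2.92 ± 0.24 SE, edgeR adjusted p = 1.48e-17), Ankrd37 4.83-fold and Bnip3 3.55-fold, while Ndrg1 fell 8.88-fold (log2 change -3.15 ± 0.18 SE, edgeR adjusted p = 6.55e-26) and Kdm3a 2.28-fold. Of the stretches of Bnip3, 47.2% are shared.

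Cytoskeleton and adhesion genes rose in 5 of 28 and fell in 9. Tubb5, the main beta tubulin of dividing cells, stood at 632, 429 and 640.0 CPM at 4 h and 4379, 4315 and 4276 CPM at 20 h (log2 change 2.93 ± 0.18 SE, edgeR adjusted p = 1.19e-24). Stmn1, which destabilizes microtubules, rose 15.8-fold (log2 change 3.98 ± 0.27 SE, edgeR adjusted p = 7.23e-22). Lmna, the gene of the A-type lamins, fell 7.54-fold (log2 change -2.91 ± 0.29 SE, edgeR adjusted p = 4.69e-14), the syndecan gene Sdc4 7.21-fold and Tubb2b, with 36.9% shared stretches, 4.08-fold. Actg1, a main actin gene, was counted at only 4.79, 7.20 and 5.89 CPM at 4 h and 1.07, 0.258 and 0.837 CPM at 20 h, so its fall is uncertain in the same way as the level of Gapdh. By difference in CPM per kb of gene length, the genes that moved most upward also included Cd52, a surface glycoprotein (259.5, 212 and 340.1 CPM at 4 h and 1090.0, 1030.2 and 1389 CPM at 20 h; log2 change 2.11 ± 0.19 SE, edgeR adjusted p = 8.89e-16), and the thioredoxin gene Txn1 (156, 134 and 169 CPM at 4 h and 499.5, 541 and 750.2 CPM at 20 h; log2 change 1.96 ± 0.20 SE, edgeR adjusted p = 6.93e-14). Those downward included B2m, the light chain of MHC class I (3646, 3623 and 4955 CPM at 4 h and 1509, 1658 and 2107 CPM at 20 h; log2 change -1.21 ± 0.16 SE, edgeR adjusted p = 1.24e-09). At 0 h Cd52 had stood at 1214, 1086 and 1530.5 CPM.

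The deepest falls among protein coding genes were mostly those of B cell genes. Under the same limits on overlap and counts, the genes with the largest fall included Scn4a, Clec4e, Cr2, Jchain, Cx3cr1, Fcer2a, Fcrla, Mef2c and Pax5. Pax5, the B cell identity factor, stood at 13.6, 10.6 and 17.4 CPM at 4 h and 0, 0.147 and 0.114 CPM at 20 h (log2 change -7.38 ± 0.53 SE, edgeR adjusted p = 1.30e-20). Clec4e, a receptor of myeloid cells, fell to 0 counts, at least 93.8-fold lower, and Scn4a, a sodium channel gene, to 0 counts, at least 100.1-fold lower. Cr2 had 2 counts at 20 h, a ratio of 685 with a counting interval of 189 to 5660, Jchain 2 counts (568, 157 to 4692) and Cx3cr1 1 count (403, 72.0 to 15956). Each of these genes stood at 1.63 CPM or more in every 4 h library and at 0.267 CPM or less in every 20 h library, and replicate 3 was the highest at 4 h for all but Cx3cr1.

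Marker lists of other cell types fell with them. All 10 B cell markers fell, and their sum went from 185, 134 and 365 CPM to 3.92, 3.65 and 6.20 CPM. All 8 markers of erythroid cells and platelets fell, from 2022, 1090.1 and 1179 CPM to 46.5, 14.7 and 9.67 CPM. All 4 NK cell markers fell, from 3.43, 8.96 and 4.82 CPM to 0.0282, 0.737 and 0.266 CPM. Of 12 myeloid markers 10 fell, Csf1r from 2.39, 4.25 and 4.26 CPM to 0.0846, 0.0369 and 0.0381 CPM among them, while the sum was 91.1, 77.0 and 107 CPM at 4 h and 67.6, 73.2 and 95.1 CPM at 20 h, of which Cst3 alone made 64.0, 69.0 and 92.5 CPM. In the gamma delta T cell list 1 of 5 fell and of the 2 CD8 markers none was called. In the regulatory T cell list Ikzf2 and Lrrc32 fell, 2 of 5, while Foxp3 stood at 16.0, 11.0 and 8.20 CPM at 4 h and 20.3, 11.4 and 6.17 CPM at 20 h. The part of these cells in the falls of Cd74, chemokine, interferon and cytokine genes that B cells or myeloid cells also express was not tested.

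**Figure D4:**
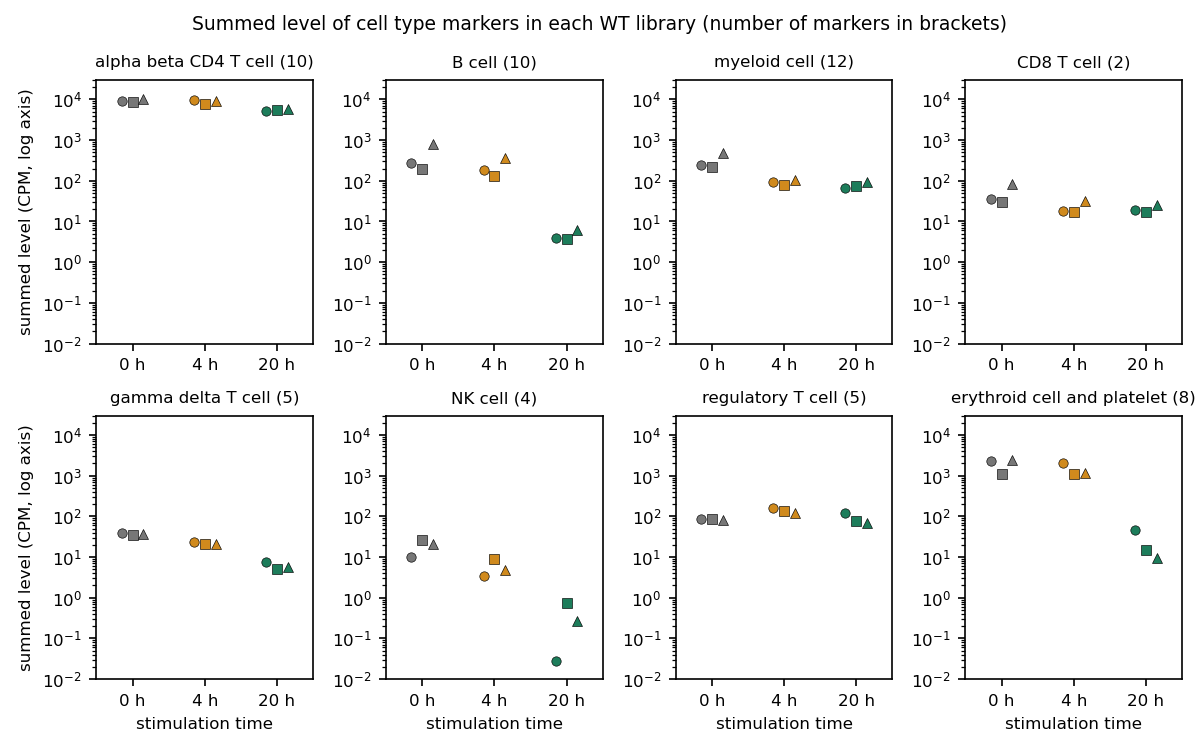
Summed level in CPM on a log axis (vertical) of the marker genes of 8 cell types in each WT library at 0, 4 and 20 h; circle, square and triangle mark replicates 1, 2 and 3. B cell markers and markers of erythroid cells and platelets drop from over 100 CPM at 4 h to under 50 CPM at 20 h, while alpha beta CD4 T cell markers stay at 5243 CPM or more.

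Most classes of noncoding genes fell more often than they rose. Of 1840 antisense genes 15.1% were lower and 1.63% higher, of 1977 lincRNA genes 8.55% and 2.98%, of 223 sense intronic genes 25.1% were lower and none higher, and of 289 snoRNA genes 18.7% and 0.346%. Protein coding genes were close to even, at 14.4% lower and 13.8% higher, and processed pseudogenes went the other way, at 4.53% higher and 1.55% lower. How strand was used in counting is not given in the sources used here, so reads of an antisense or intronic gene cannot be told apart from those of its host. Named lncRNA genes that fell were 1700016P03Rik (6.49, 7.30 and 5.07 CPM at 4 h and 0.0564, 0.111 and 0.0381 CPM at 20 h; 6 counts in all at 20 h), Gm20743 (7.15, 12.5 and 6.39 CPM at 4 h and 0.226, 0.111 and 0 CPM at 20 h; log2 change -6.12 ± 0.63 SE, edgeR adjusted p = 2.61e-13) and 2010016I18Rik (19.9, 22.6 and 12.7 CPM at 4 h and 0.536, 0.258 and 0.304 CPM at 20 h; log2 change -5.60 ± 0.45 SE, edgeR adjusted p = 3.90e-18). Those that rose were 2810408I11Rik (0.472, 0.596 and 0.319 CPM at 4 h and 6.14, 5.53 and 7.42 CPM at 20 h), 5033430I15Rik (1.07, 1.01 and 1.28 CPM at 4 h and 8.51, 9.18 and 11.0 CPM at 20 h) and Gm13546 (2.14, 2.54 and 3.19 CPM at 4 h and 24.9, 12.1 and 16.5 CPM at 20 h). The libraries of the 2 times did not overlap for any of them, and 1700016P03Rik shares 73.0% of its stretches with other transcripts.

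WT cells of a second experiment give the same interval in flow-sorted cells, with 3 libraries per time. Those cells are labelled wild-type (hDTR+) and were sorted by their human DTR marker from Lat fl-dtr maT-Cre mice, in which Cre acts in mature T cells. They were counted in a table of their own and fitted apart, so differences between enriched and sorted cells were not tested. There 2195 of 27780 genes were higher at 20 h (7.9%) and 2589 lower (9.32%). Of the genes higher in enriched cells 66.5% were also called higher in sorted cells, which is 85.5% of the sorted ones, and of the genes lower in enriched cells 54.1% were called lower, which is 82.4% of the sorted ones. DNA replication rose in 54 of 59 genes (median 3.20), mitosis in 54 of 60 (median 4.36) and the immediate early factors fell in 21 of 30 (median -1.81). Nuclear respiratory chain subunits rose in only 2 of 77 (median 0.47) and mitochondrial ribosomal proteins in 13 of 78 (median 0.51), with 5 of 8 mitochondrial DNA genes lower. Tbx21 had a log2 change of -1.81 in sorted cells, opposite in sign to enriched cells, and Tpi1 one of 4.16.

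**Figure D5:**
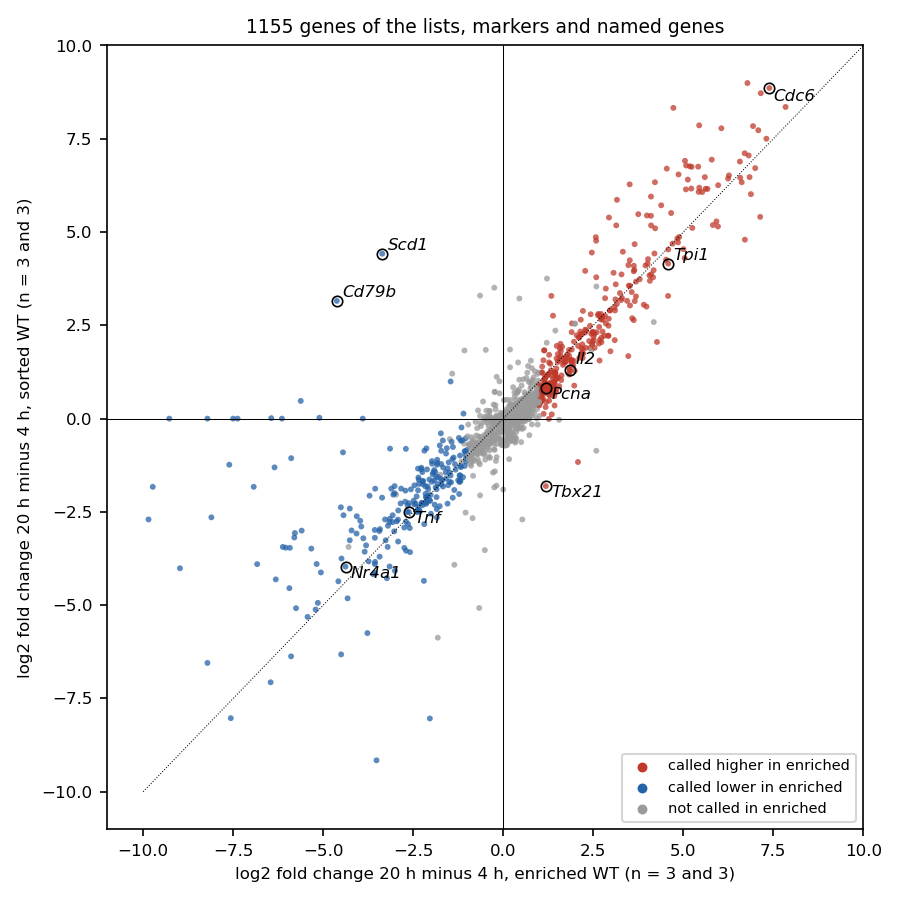
Log2 fold change from 4 h to 20 h in enriched WT cells (horizontal) against sorted WT cells (vertical) for 1155 genes of the lists, markers and named genes, colored by their call in enriched cells, with a dotted line of equal change. The cloud follows the line, with Cdc6 at the top right and Nr4a1 at the lower left, and Scd1 and Cd79b lie at the upper left, lower in enriched and higher in sorted cells.

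The knockouts of the same experiment allow a test of the change itself. In Cd5-/- cells 2854 genes were higher and 4023 lower at 20 h, in Cd6-/- cells 2668 and 4040, and in Cd5-/-Cd6-/- cells 2601 and 4316. DNA replication rose in 59 of 59 genes in Cd5-/- cells. The change from 4 h to 20 h differed from the WT change, by an interaction term over 32290 genes, in 1 gene in Cd5-/- cells (0.0031%), in none in Cd6-/- cells (0%) and in 1 gene in the double knockout (0.0031%). At an unadjusted p under 0.05 edgeR gave 687, 523 and 876 genes, and DESeq2, which called none, 483, 354 and 788. Each count is a smaller share of the 32290 genes than the 0.05 expected with no difference, so it shows no further genes. With the replicate block the counts were 1 gene higher and 2 lower in Cd5-/- cells and 16 lower in the double knockout.

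The gene in Cd5-/- cells was Cd5 itself, the gene that was targeted. In the library group labelled Cd5-/- its level went from 94.7, 150.3 and 61.6 CPM to 12.5, 13.9 and 11.4 CPM, while in WT cells it stood at 1684, 1399.6 and 1447 CPM at 4 h and 1004, 1257 and 1139.6 CPM at 20 h, an interaction of -2.60 ± 0.46 SE on the log2 scale (edgeR adjusted p = 0.00727). In the double knockout it was Slc15a3, a lysosomal peptide carrier, at 2.04, 5.77 and 3.02 CPM at 4 h and at 0, 0.120 and 0 CPM at 20 h, beside 2.14, 2.20 and 5.11 CPM and 1.07, 0.958 and 1.45 CPM in WT cells (interaction -4.86 ± 0.88 SE, edgeR adjusted p = 0.0142). Slc15a3 lies beside the targeted genes on chromosome 19 (GRCm38), at 10839727 to 10859362 on the plus strand, with Cd6 at 10789341 to 10830058 and Cd5 at 10717116 to 10739002 on the minus strand. Neither call was made by DESeq2 or after edgeR's filter on low counts, where the adjusted p was 1 and 0.823 for Cd5 and 0.0927 and 0.611 for Slc15a3. For Cd5 the spread in these fits also takes in the unstimulated Cd5-/- and Cd6-/- libraries that went against their labels. The interaction was not fitted without them, so the lost call of Cd5 is not evidence that its change was alike.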

How the data were processed

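RNA of WT CD4+ T cells at 0, 4 and 20 h was sequenced from poly-A libraries made with a stranded kit from 250 ng of RNA (single reads of 50 bases). The authors deposited raw counts per Ensembl gene in whole-series tables, a column per sample. The submitters' processing notes name bcl2fastq 2.17.1.14, STAR, featureCounts and DESeq2 and the build GRCm38 (mm10). The annotation release, the strand setting of counting and the handling of reads that match several places are not given in the sources used here. Of 55385 gene identifiers 55144 matched the annotation used for names and gene classes, and no column of per-sample counts was without a sample.

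Counts were analysed in R 4.3.3 with edgeR 4.0.16 (quasi-likelihood test, limma 3.58.1), data.table (version 1.17.8) and, as an alternative, DESeq2 1.42.0. All 36 libraries of the CD5 and CD6 experiment entered 1 fit with a term per genotype and time, TMM scaling, every gene with at least 1 read and Benjamini-Hochberg adjustment over all genes tested. Library depth across that fit ran from 20554354 to 45222554 counts. Genes were called at a fold above 2 and an adjusted p under 0.05. The sorted cells were fitted in a table of their own, which holds 18 libraries. Counting intervals (95%, exact) and the floor of 3 counts per group cover counting error only. The fit was also run on simulated data in which few genes changed, balanced between the directions. That run does not test the scaling under changes as many as those reported here.

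The members and gene lists were chosen with earlier results of these data known, so no list is independent evidence of its direction. The text names fixed marker genes, the 10 protein coding genes with the largest change in each direction, the 6 with the largest difference in CPM per kb in each direction, up to 4 called members of each list and 2 in the other direction, 3 lncRNA genes in each direction and the genes whose change differed in a knockout. Named after their values were seen were Orc2, Bub1, Bub3, Smc4, Pttg1, Cenpa, Cdc25b, Cdkn1a, Hk2, Slc2a1, Gapdh, mt-Atp6, mt-Nd3, Batf3, Il4, Klf2, Trbc2, Foxp3, Ikzf2, Lrrc32, Csf1r and Cst3. Some genes that these rules pick are not reported here.

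Replicate numbers come from the labels. Over 13225 genes, deviations from group means correlated between 0.106 and 0.452 for WT libraries with the same number (mean 0.223). For different numbers the correlations lay between -0.375 and 0.310 (mean -0.110). Deviations within a time sum to 0, so the second mean largely follows from the first and adds no separate support. The same-number values 0.106 and 0.111 also lie below 0.310, so the samples may be paired by number, but these values do not settle it. The fit as reported has no replicate term, and the block's counts are given beside the interaction and with the alternatives. Alternatives tried were DESeq2, relative log expression factors, library totals, edgeR's filter on low counts, the WT libraries alone, the replicate block, a test against a fold of 2, the adjusted p alone and leaving out each library. Promoter windows are those of RefSeq (GRCm38.p6), with 15272 tested genes matched.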

Additional observations from a re-analysis of the deposited data

Results flagged for a closer look

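The change of Cd5 from 4 h to 20 h in Cd5-/- cells, beside that in WT cells, gave an interaction of -2.60 on the log2 scale, and the change of Slc15a3 in the double knockout one of -4.86. Both were picked out because the change differed between genotypes by a test of the difference. Cd5 is the targeted gene and stood at 150.3 CPM or less in the 4 h and 20 h libraries labelled Cd5-/-, and the neighbouring Slc15a3 had 0.120 CPM or less in the 20 h libraries of the double knockout. At 4 h and 20 h Cd6-/- cells held Slc15a3 at 2.52, 5.30 and 9.39 CPM and at 1.33, 1.80 and 3.84 CPM, and Cd5-/- cells at 1.74, 2.47 and 1.62 CPM and at 1.12, 1.71 and 1.63 CPM.

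Between enriched and sorted WT cells, 22 genes were called in opposite directions, 21 of them lower at 20 h in enriched and higher in sorted cells. For 17 of these the libraries of the 2 times did not overlap in either preparation, and the difference between preparations itself was not tested. Cd79b, a chain of the B cell receptor, stood in sorted cells at 0.421, 0.275 and 0.377 CPM at 4 h and 2.74, 3.72 and 3.23 CPM at 20 h (log2 change 3.15), and in enriched cells at 25.3, 20.5 and 80.0 CPM and 1.58, 1.47 and 2.06 CPM. Both preparations thus ended at a few CPM and differed at 4 h. Cd74, the MHC class II invariant chain, stood in sorted cells at 14.5, 11.6 and 11.8 CPM and 32.6, 34.4 and 24.4 CPM (log2 change 1.27), and in enriched cells at 146, 113 and 391 CPM and 24.0, 20.9 and 21.7 CPM. The desaturase gene Scd1 went from 0, 0 and 0.0754 CPM to 0.556, 0.848 and 0.707 CPM in sorted cells (log2 change 4.42), where enriched cells had 8.72, 5.80 and 17.7 CPM at 4 h.

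The other 14 had these log2 changes in sorted cells, all opposite to a fall in enriched cells: Fcmr 3.06, Kmo 4.67, Tmcc2 4.16, H2-DMb2 2.76, Rassf4 3.31, Ly6d 2.06, Chst3 2.33, Tnfrsf13c 2.87, Ebi3 2.95, Gm6545 2.67, Fam129c 1.93, Gm27008 2.47, Bank1 1.03 and Pik3ap1 2.23. B cell markers in enriched cells fell over the same interval from between 134 and 365 CPM to between 3.65 and 6.20 CPM, and the part of such cells in these opposite changes was not tested.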

How the results depend on the processing

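The counts of 2822 genes higher and 3943 lower at 20 h ranged from 2565 to 2834 and from 3378 to 3922 when 1 WT library was left out. They were 2753 and 4103 with DESeq2, which gave 12521 genes no adjusted p and shared 2667 and 3842 genes with edgeR, 2674 and 4095 with relative log expression factors, 3165 and 3547 with library totals, 2852 and 3660 after edgeR's filter on low counts, and 2806 and 3998 with the 6 WT libraries alone. With the replicate block they were 2869 and 4049 over all 36 libraries and 2677 and 3670 over the 6. A test against a fold of 2 gave 1627 and 2558, and the adjusted p alone 4461 and 5403. Leaving out the 2 unstimulated libraries that went against their labels, an alternative chosen after seeing the data, gave 2764 and 4099. The median over the 13225 genes that averaged 10 counts or more moved from 0.02 to 0.13 with library totals, and the share of called genes that were higher from 41.7% to 47.2%.

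The genes called for the Cd5-/- interaction were 0 by DESeq2 and 0 after the filter on low counts, and 1 higher and 2 lower with the replicate block. With 1 WT library left out they ranged from 0 to 1 higher and 1 to 1 lower. The Cd6-/- interaction gave 0 to 2 higher and 0 lower when 1 WT library was left out. The double knockout gave 0 by DESeq2, 0 after the filter and 16 lower with the replicate block, and 1 to 13 lower when 1 WT library was left out, with 2 without the 4 h replicate 1, 13 without the 4 h replicate 3 and 7 without the 20 h replicate 3. The cause was not tested.

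Of the list members, markers and named genes, 1143 to 1161 were checked gene by gene, depending on the setting, with the test against a fold of 2 left out. None that was called in the main fit or in the alternative changed sign between them. Sign changes of genes called in neither were not counted. Beside the interaction counts, the replicate block over the 6 WT libraries removed the calls of 7 of the genes checked and added 7. Among genes named here, Ldha, Polr1c, Rpl13a and Il9 lost their call. Gapdh gained one, lower at 20 h with a log2 change of -1.01. Counts of 0 in 1 group limit Clec4e, Scn4a, Cxcl9, Gzmk and Il9 to bounds, and genes with 1 to 3 counts are given with a counting interval.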

Other observations

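Several genes had at 20 h a level near or above that of unstimulated cells and a low level in between. They were picked after their values were seen, and the comparisons with 0 h share libraries with the change from 4 h to 20 h, so the levels are given side by side with no test. Bad, a pro-apoptotic BCL2 family gene, stood at 16.4, 17.8 and 23.3 CPM at 0 h, 4.22, 5.15 and 6.07 CPM at 4 h and 20.6, 20.2 and 29.1 CPM at 20 h. The lncRNA gene Gm13546 stood at 18.4, 15.4 and 18.6 CPM, 2.14, 2.54 and 3.19 CPM and 24.9, 12.1 and 16.5 CPM. Prps2 of nucleotide synthesis stood at 179, 154 and 196 CPM, 88.7, 72.3 and 78.9 CPM and 237, 239 and 249.7 CPM, with all 20 h libraries above those of 0 h. In each the 4 h libraries lay below all others.

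B cell genes did not change alike before they were lost. Fcer2a, the low-affinity IgE receptor, stood at 10.8, 9.88 and 41.4 CPM at 0 h and 54.3, 29.9 and 77.5 CPM at 4 h. Fcrla, an Fc receptor-like gene, stood at 11.2, 5.57 and 41.6 CPM at 0 h and 3.27, 3.13 and 9.08 CPM at 4 h. Both were at 0.267 CPM or less at 20 h, and at 0 h replicate 3 held the most of either.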
